A study of Mus musculus with 20 samples.

Results

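The genes described here are 10 of the chloride channel, anoctamin and chloride transporter families. They are Clcn2, Clcn3, Clcn5, Clcn6 and Clcn7 of the CLC family, the anoctamins Ano1, Ano3, Ano6 and Ano10, and Slc12a2. Slc12a2 encodes the sodium-potassium-chloride cotransporter NKCC1. The 10 genes were taken as a list of named genes and matched by Ensembl identifier to a table of 37620 genes. All 10 had a value in each of 20 libraries. The libraries were made from Trpv1 neurons of adult mice aged 6 to 8 weeks, homozygous for the Trpv1tm2Bbm allele, which places a nuclear lacZ reporter under control of the Trpv1 locus. Dorsal root ganglia (DRG) of 5 male and 5 female donors were dissociated, cells were loaded with a fluorogenic substrate of β-galactosidase, and the brightest cells were sorted. Each donor gave a lumbar library (L4-5) and a sacral library (L6-S1), so that there were 4 groups of 5 and 10 donor pairs. Each donor label carries 2 animal numbers, and whether cells of 2 animals were pooled is not stated in the labels. Donors are called M1 to M5 and F1 to F5. All 20 libraries came from animals that carried the reporter.

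Levels are given in log2 RPKM, a log2 scale of reads divided by exon length and library size, on which genes of different length can be compared. The deposited values were also scaled between libraries, so that every library has the same median. Between 43906566 and 66407317 reads fell on genes per library, and among the 10 genes counting error weighed most on Ano1, the gene with the fewest reads. A positive level difference means a higher value in lumbar libraries and a negative one a higher value in sacral libraries. These are bulk values of sorted cells, in which fewer cells of a type and less RNA per cell cannot be told apart. Markers of other cells were present after the sort. Nociceptor markers (Trpv1, Calca, Tac1, Scn10a, Scn11a and Gfra3) had a summed level of 10.45 to 11.10 in log2 RPKM. Their mean was higher in the sacral library of 10 of 10 donors, with a difference of -0.63 ± 0.27 (SD) on the log2 scale. Of the 6, 4 passed in that direction, among them Scn11a at -1.19 and Trpv1 at -0.96. Calca (0.16) and Tac1 (-0.10) did not pass, and Calca was higher in the lumbar library of 8 of 10 donors. The 10 glial markers, none without reads in any library, summed to 10.97 to 11.96 in lumbar and 10.25 to 11.02 in sacral libraries. The mean of the glial markers was higher in the lumbar library of 10 of 10 donors, by 1.02 ± 0.27 (SD) on the log2 scale, and 9 of the 10 passed the test of the levels. All 5 pan-neuronal markers were higher in sacral libraries. Markers of macrophages (2 of 3 tested), endothelium (4 of 4) and fibroblasts (3 of 4) were also higher in lumbar libraries. Of 3 tested markers of large myelinated neurons, Pvalb (2.11, from 0 to 113 reads) and Spp1 (1.30) were too. Ntrk3 went the other way (-0.27) and did not pass. The mean of this class differed by 0.33 ± 0.71 (SD), and was higher in the lumbar library of 7 of 10 donors. Runx3 and Calb2, of the same class, were too low to be tested. Glial markers were used as a covariate and pan-neuronal ones as a scale. The part of the other markers in the results that follow was not tested.

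As background, most adult neurons keep cellular chloride low, whereas DRG neurons keep it high because they express NKCC1 and little of the extruder KCC2. Opening a chloride channel therefore depolarises them. The CLC family holds plasma membrane channels, of which Clcn2 is an inward rectifier, and exchangers of chloride for protons in endosomes and lysosomes. The anoctamins hold calcium-activated chloride channels such as Ano1, which is known for its part in heat and inflammatory pain, and phospholipid scramblases such as Ano6.

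Ano3 was the most abundant of the 10, with a mean of 5.05 ± 0.61 (SD, n = 20 libraries), above Clcn6 in 19 of 20 libraries. Clcn6 (4.47 ± 0.41) and Slc12a2 (4.41 ± 0.30) followed, and averaged over the levels of each donor they differed by 0.06 ± 0.38 (SD, n = 10 donors). Their order depended on the level. Slc12a2 was the higher in 8 of 10 lumbar libraries, with means of 4.57 and 4.18, and Clcn6 in 10 of 10 sacral libraries, with means of 4.76 and 4.25. Ano6 stood next at 3.89 ± 0.22. Clcn5 (2.74 ± 0.42) and Clcn3 (2.62 ± 0.20) were again close, with a difference of 0.12 ± 0.12, and Clcn5 was the higher of them in 10 of 10 sacral libraries (3.08 against 2.76) but in only 3 of 10 lumbar ones (2.39 against 2.48). Ano10 (1.93 ± 0.45), Clcn7 (1.26 ± 0.26) and Clcn2 (-0.09 ± 0.48) were lower. Ano1 was lowest at -2.70 ± 1.71, with 3 to 162 reads per library. Among the genes tested, the mean of Ano3 lay above 93.6% and that of Clcn2 above 19.0%.

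**Figure D1:**
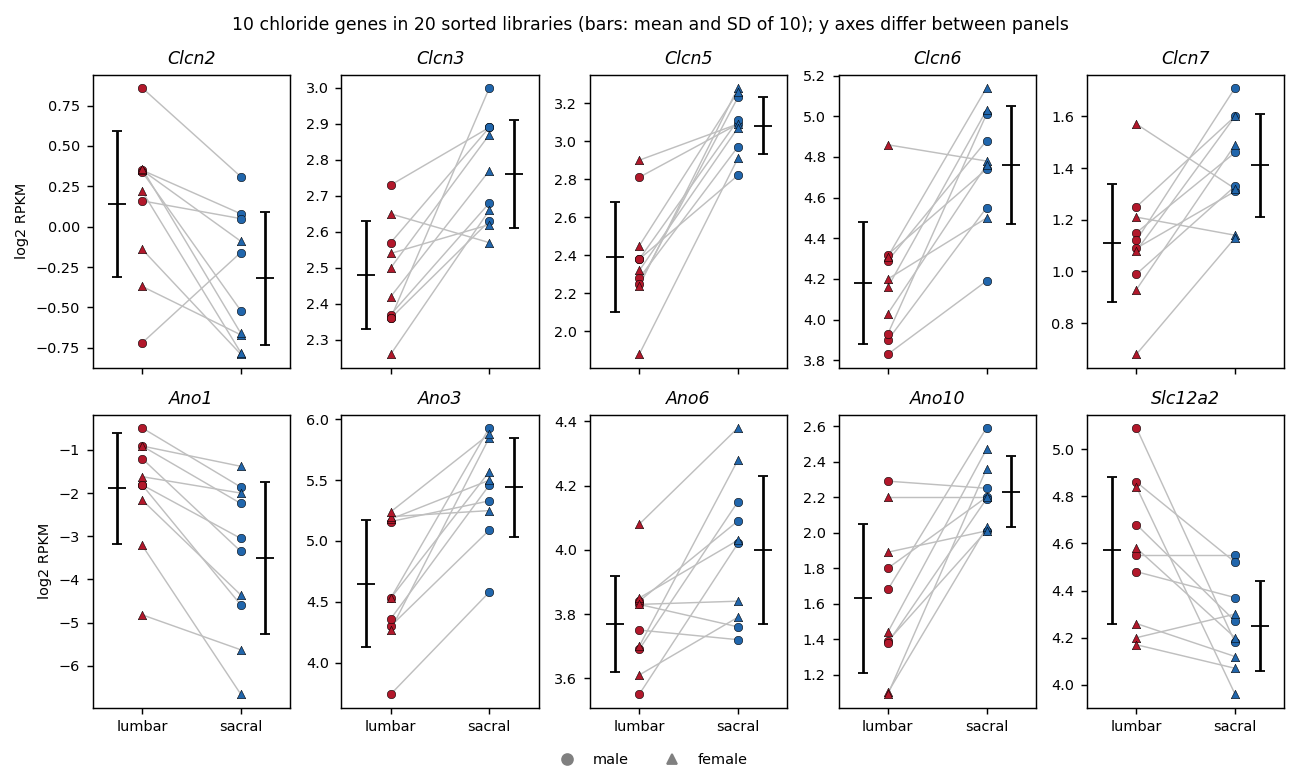
Level of each of the 10 chloride genes in log2 RPKM (y axis, a separate scale per panel) in lumbar and sacral libraries (x axis). Circles are male and triangles female donors, grey lines join the libraries of a donor, and bars give the mean and SD of 10 libraries. All 10 lines of Clcn5 and Ano3 run up to the sacral library and all 10 of Ano1 run down.

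Of the 10 genes, 9 were abundant enough to be tested between levels, and all 9 passed the test (limma with the donor as a block, Benjamini-Hochberg adjusted p of at most 0.05). Of these, 7 were higher in sacral libraries, 3 of which (Clcn3, Clcn7 and Ano6) turned to the lumbar side when scaled to pan-neuronal markers, and 2, Clcn2 and Slc12a2, were higher in lumbar libraries, Slc12a2 falling to -0.01 when reads were scaled to the library total. With the mean of the glial markers as a covariate, 0 of the 9 passed (limma) and none had an unadjusted p under 0.05. Of all 16304 genes tested in that fit, 143 (0.877%) passed and 1809 had an unadjusted p under 0.05. Without the covariate, differences between the levels were widespread in these cells. Of the 16304 genes tested, 45.6% passed, 30.3% with a higher value in sacral and 15.3% with a higher value in lumbar libraries. The median difference of the 9 was -0.30, beside -0.11 over all genes tested.

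The endosomal and lysosomal exchangers Clcn3, Clcn5, Clcn6 and Clcn7 were all higher in sacral libraries on the deposited scale, and Clcn3 and Clcn7 turned to the lumbar side on the pan-neuronal one. Clcn5, an exchanger of endosomes (X:6730936-6896484, minus strand, NCBIM37), had a lowest, median and highest value of 1.88, 2.35 and 2.90 in lumbar libraries and 2.82, 3.09 and 3.28 in sacral libraries. The ranges overlapped only through the lumbar library of F2, and 9 of 10 sacral libraries lay above every lumbar one. The level difference was -0.69 with an SE of 0.10 (limma adjusted p = 2e-05), which is 1.62-fold higher in sacral libraries. It was higher in the sacral library of 10 of 10 donors, as were 14.6% of the tested genes with a value in every library. The annotation places 5 microRNA genes of the same strand and a small nucleolar RNA gene inside Clcn5, and 2 of these had a value in any library, in 3 libraries or fewer.

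Clcn6, an exchanger of late endosomes that is found mainly in neurons (4:147378368-147412930, minus strand, NCBIM37), ran from 3.83 to 4.86 with a median of 4.18 in lumbar libraries. In sacral libraries it ran from 4.19 to 5.14 with a median of 4.77. The groups overlapped, with 4 sacral libraries above every lumbar one, and 9 of 10 donors were higher in the sacral library. Donor F2 differed by 0.08 the other way. Clcn6 had a level difference of -0.58 with an SE of 0.11 (limma adjusted p = 0.00026), or 1.49-fold higher in sacral libraries. It was -0.09 and did not pass when scaled to the pan-neuronal markers (adjusted p = 0.36). A pseudogene record, Gm13207, lies inside Clcn6 on the opposite strand and went the other way, with a level difference of 1.19 (limma adjusted p = 0.028).

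Clcn3, an exchanger of endosomes and synaptic vesicles (8:63389186-63462097, minus strand, NCBIM37), had 2.26, 2.46 and 2.73 as lowest, median and highest lumbar values and 2.57, 2.72 and 3.0 as sacral values. The groups overlapped, although 9 of 10 donors were higher in the sacral library. For Clcn3 the level difference was -0.28 with an SE of 0.07 (limma adjusted p = 0.0043). It was lost in females alone (adjusted p = 0.17) and under quantile normalisation (0.089). On the pan-neuronal scale Clcn3 passed in the lumbar direction (0.20, limma adjusted p = 0.019), where the median over all genes was 0.37.

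Clcn7, the lysosomal exchanger that works with the subunit Ostm1 (17:25270336-25299049, plus strand, NCBIM37), ran from 0.68 to 1.57 with a median of 1.11 in lumbar libraries and from 1.13 to 1.71 with a median of 1.40 in sacral libraries. The ranges overlapped widely, and 8 of 10 donors were higher in the sacral library. The level difference was -0.30 with an SE of 0.10 (limma adjusted p = 0.022), and it no longer passed when donor F1, F5 or M5 was left out, in males alone (0.066), in females alone (0.34) or with TMM factors on recovered reads (0.13). Ostm1 gave -0.27 with an SE of 0.13 and did not pass (limma adjusted p = 0.086).

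Clcn6 and Clcn7 share letters near their starts, which are shown because both genes belong to the endosomal and lysosomal group. The palindrome TCACGTGA, the core of the motif known from lysosomal genes as CLEAR, was searched on both strands in RefSeq promoter windows of GRCm38.p6, each with 250 bases before and 50 after a start. It was present in 0.974% of 32851 windows and in 2 of 13 windows found for 9 of the 10 genes. The windows follow 5′ to 3′ on the gene's strand, with the match in capitals.
Clcn6, chr4:148038764-148039063, minus strand: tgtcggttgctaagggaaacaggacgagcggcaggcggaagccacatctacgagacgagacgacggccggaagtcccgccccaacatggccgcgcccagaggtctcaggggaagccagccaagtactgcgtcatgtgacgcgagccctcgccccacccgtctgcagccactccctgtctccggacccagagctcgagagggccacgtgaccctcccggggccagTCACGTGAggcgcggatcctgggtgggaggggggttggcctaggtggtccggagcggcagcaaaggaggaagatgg
Clcn7, chr17:25133141-25133440, plus strand: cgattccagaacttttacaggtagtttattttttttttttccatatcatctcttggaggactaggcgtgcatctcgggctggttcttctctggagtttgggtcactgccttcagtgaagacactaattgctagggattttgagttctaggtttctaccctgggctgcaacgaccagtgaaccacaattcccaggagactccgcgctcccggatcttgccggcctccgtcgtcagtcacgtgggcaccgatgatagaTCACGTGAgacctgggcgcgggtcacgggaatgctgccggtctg
The match lay at bases 225 to 232 of the Clcn6 window and 257 to 264 of the Clcn7 window. The palindrome TGACGTCA, a cyclic AMP response element, was present in 1.79% of all windows and in a window of Clcn3. A match describes letters only, and no binding was measured. No relation between a match and a level difference was tested.

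Clcn2, the inwardly rectifying channel of the plasma membrane (16:20703037-20717819, minus strand, NCBIM37), was the CLC gene with the opposite sign. Its lowest, median and highest values were -0.72, 0.28 and 0.86 in lumbar libraries and -0.79, -0.34 and 0.31 in sacral libraries. The ranges overlapped, and 5 lumbar libraries lay above every sacral one. It was higher in the lumbar library of 9 of 10 donors, and donor M1 differed by -0.57. Clcn2 gave a level difference of 0.46 with an SE of 0.17 (limma adjusted p = 0.033). Clcn2 rested on 171 to 447 reads per library, and its call was lost on leaving out any of 7 of the 10 donors (F1, F4, F5, M2, M3, M4 and M5), with adjusted p from 0.051 to 0.091, and in each sex alone (0.52 in males and 0.056 in females). Its ends overlap Fam131a and Polr2h on the opposite strand, both of which were higher in sacral libraries, by -0.61 and -0.32 as level differences (limma adjusted p = 0.00049 and 0.042).

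Shares were taken of the summed RPKM of Clcn2, Clcn3, Clcn5, Clcn6 and Clcn7 alone. Clcn4-2 (mean log2 RPKM 3.50) and Clcn1 (1.94), also of the CLC family, were left out of the sum. Clcn4-2 had a level difference of -0.51 (limma adjusted p = 0.0003), and of -0.03 on the pan-neuronal scale (limma adjusted p = 0.82). Clcn6 took 50.5 to 62.4% of the sum in lumbar libraries and 50.4 to 64.4% in sacral libraries. The share of Clcn3 was larger in the lumbar library of 10 of 10 donors, with medians of 17.5% in lumbar and 15.0% in sacral libraries. The share of Clcn2 fell from a median of 3.81% in lumbar to 1.69% in sacral libraries and was larger in the lumbar library of 9 of 10 donors. These shares are within a library, which scaling between libraries does not change. They are given as a description.

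Ano3, the anoctamin known from nociceptors, where it acts with a sodium-activated potassium channel (2:110495358-110791080, minus strand, NCBIM37), had a larger difference than the other 8 genes tested on the deposited scale. On the pan-neuronal scale Clcn2 (0.95) and Slc12a2 (0.80) differed by more than Ano3 (-0.31). Its lowest, median and highest values were 3.74, 4.53 and 5.24 in lumbar libraries and 4.58, 5.48 and 5.93 in sacral libraries. The groups overlapped, but 8 sacral libraries lay above every lumbar one and 10 of 10 donors were higher in the sacral library, with differences from -1.57 to -0.05. For Ano3 the level difference was -0.79 with an SE of 0.16 (limma adjusted p = 0.00047), or 1.73-fold higher in sacral libraries. Muc15, which lies inside Ano3 on the opposite strand, gave 0.02 (limma adjusted p = 0.97).

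Ano10, an anoctamin of internal membranes linked to cerebellar ataxia (9:122084997-122203492, minus strand, NCBIM37), ran from 1.09 to 2.29 with a median of 1.56 in lumbar libraries and from 2.01 to 2.59 with a median of 2.20 in sacral libraries. The sacral libraries were close together and the lumbar ones spread out, with an SD of 0.42 in lumbar and 0.20 in sacral libraries. For Ano10 the level difference was -0.60 with an SE of 0.14 (limma adjusted p = 0.0012), and 8 of 10 donors were higher in the sacral library. The other donors, F2 and M1, differed by 0.01 and 0.04. Scaled to the pan-neuronal markers, Ano10 gave -0.12 and did not pass (limma adjusted p = 0.42).

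Ano6, the calcium-activated phospholipid scramblase (15:95621274-95805180, plus strand, NCBIM37), ran from 3.55 to 4.08 with a median of 3.79 in lumbar libraries and from 3.72 to 4.38 with a median of 4.02 in sacral libraries. Ano6 had a level difference of -0.23 with an SE of 0.08 (limma adjusted p = 0.026). The groups overlapped, and 8 of 10 donors were higher in the sacral library. Gm17546, inside Ano6 on the opposite strand, gave 0.53 (limma adjusted p = 0.47). The Ano6 call was lost on leaving out F5, M1, M3 or M5 (adjusted p from 0.051 to 0.084) and in males alone (0.16) or females alone (0.17), under quantile normalisation (0.7) and with TMM factors (0.21). On the pan-neuronal scale Ano6 passed in the lumbar direction (0.25, limma adjusted p = 0.033), where the median over all genes was 0.37.

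Ano1, the calcium-activated chloride channel TMEM16A (7:151774454-151937879, minus strand, NCBIM37), was below the limit set for testing. Its values ran from -4.82 to -0.49 with a median of -1.71 in lumbar libraries, from 7 to 162 reads. In sacral libraries they ran from -6.66 to -1.38 with a median of -3.20, from 3 to 127 reads. Ano1 was higher in the lumbar library of 10 of 10 donors, by 0.38 to 3.45 on the log2 scale, and the 2 groups overlapped. For comparison, 6.55% of the tested genes with a value in every library were higher in the lumbar library of all 10 donors. In a fit without the limit on low values the level difference was 1.62 with an SE of 0.55 (limma adjusted p = 0.029), and 11.8% of the genes of that fit passed with a higher value in lumbar libraries. Ano1 made up 0.0662 to 1.88% of the summed RPKM of the 4 anoctamins in lumbar libraries and 0.0155 to 0.505% in sacral libraries. Ano3 made up most of that sum, with medians of 59.9% in lumbar and 68.9% in sacral libraries, although this share was larger in the sacral library of only 6 of 10 donors.

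Slc12a2, the loader of chloride (18:58038332-58106475, plus strand, NCBIM37), went the other way from most channels. Its lowest, median and highest values were 4.17, 4.56 and 5.09 in lumbar libraries and 3.96, 4.23 and 4.55 in sacral libraries. The ranges overlapped, and 5 lumbar libraries lay above every sacral one. The level difference was 0.32 with an SE of 0.09 (limma adjusted p = 0.0073), or 1.25-fold higher in lumbar libraries, with 8 of 10 donors in this direction. It was -0.01 when reads were scaled to the library total, and it did not pass in females alone (0.28, adjusted p = 0.13).

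NKCC1 is opposed by the potassium-chloride cotransporters of the same gene family, which extrude chloride. Slc12a4 (KCC1), the general form, was higher in lumbar libraries by 0.55 with an SE of 0.18 (limma adjusted p = 0.017). Its call was lost when reads were scaled to the library total (0.23, adjusted p = 0.21), and with the glial covariate it gave -0.28 (limma adjusted p = 0.77). Slc12a7 (KCC4) gave -0.21 with an SE of 0.15 and did not pass (limma adjusted p = 0.26). Slc12a5, the neuronal extruder KCC2, was too low to be tested, with 4 to 92 reads per library. Slc12a2 had a higher level than each of these genes in every library.

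Kinases of the WNK pathway switch NKCC1 on and the extruders off. Stk39, which phosphorylates NKCC1, was higher in sacral libraries, with a level difference of -0.39 and an SE of 0.08 (limma adjusted p = 0.00043). Oxsr1, its close relative, gave -0.20 with an SE of 0.08 (limma adjusted p = 0.043). Wnk1, the kinase upstream of both, gave -0.05 with an SE of 0.09 and did not pass (limma adjusted p = 0.66). Scaled to the pan-neuronal markers, Wnk1 (0.43, limma adjusted p = 0.0036) and Oxsr1 (0.28, adjusted p = 0.026) passed with a higher value in lumbar libraries, as did Slc12a2 (0.80). So did 8702 of all 16304 genes tested, and the median difference over all genes was 0.37. Measured from that median, Wnk1 lay at 0.06, Oxsr1 at -0.09 and Slc12a2 at 0.43. On that scale Stk39 (0.10, limma adjusted p = 0.32) and Slc12a7 (0.28, adjusted p = 0.12) had positive values and did not pass. Wnk4, another kinase of the pathway, was too low to be tested, with means of -1.23 in lumbar and -2.60 in sacral libraries.

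**Figure D2:**
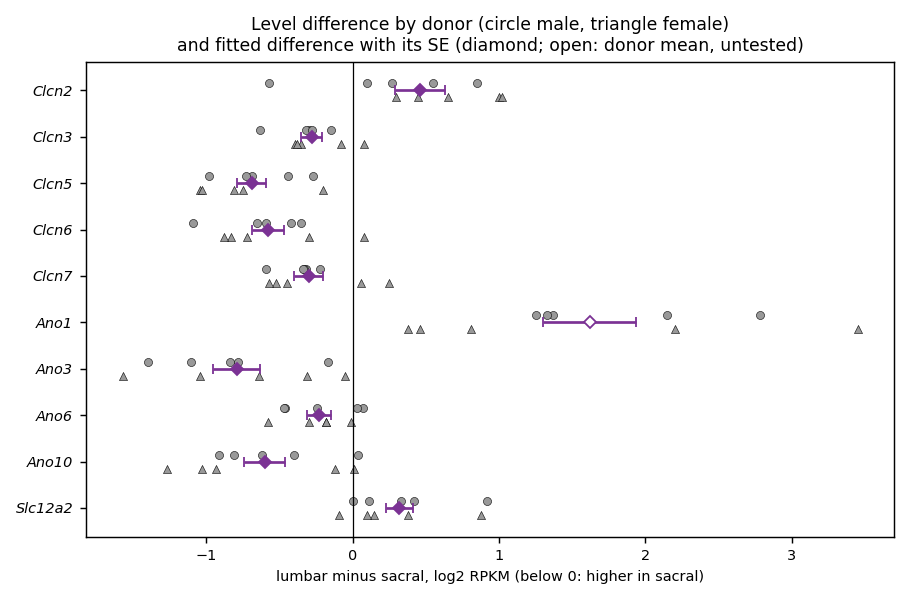
Level difference in log2 RPKM (x axis, lumbar minus sacral) of each chloride gene (y axis). Grey circles are male and triangles female donors, filled diamonds are fitted differences with their SE, and the open diamond of Ano1 is the mean of 10 donors with its SE, with no test. Ano3 and Clcn5 lie below 0 in 10 of 10 donors and Ano1 above 0 in 10 of 10, while the points of Clcn2, Clcn3, Clcn6, Clcn7, Ano6, Ano10 and Slc12a2 fall on both sides.

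Of 45 other genes of chloride channels, transporters and their kinases, 28 were tested. Of these, 11 passed with a higher value in sacral libraries, 7 with a higher value in lumbar libraries and 10 did not pass, beside 30.3% and 15.3% of all genes tested, and their median difference was -0.21. The split of the 28 was 20 sacral and 3 lumbar with total reads, beside 9505 and 1422 of all 16335 genes tested. On the pan-neuronal scale it was 1 sacral and 11 lumbar, beside 644 and 8702 of all 16304 genes tested. Among the subunits of the volume-regulated anion channel, all 4 tested LRRC8 genes passed in the sacral direction, among them Lrrc8c at -0.61 and Lrrc8b at -0.52, but on the pan-neuronal scale all 4 lost the call (limma adjusted p from 0.22 to 0.73), Lrrc8b giving -0.04, Lrrc8c -0.13 and Lrrc8a and Lrrc8d positive values. Clcn1, the channel known from skeletal muscle, had the largest sacral difference of the list at -0.82 with an SE of 0.11 (limma adjusted p = 7.4e-06). Slc4a8, a sodium-driven exchanger of chloride for bicarbonate, followed at -0.64, then Lrrc8c, and then Best1, a bestrophin, at -0.59. On the pan-neuronal scale Clcn1 kept its call (-0.34, limma adjusted p = 0.014), while Slc4a8 (-0.16, adjusted p = 0.38) and Best1 (-0.11, adjusted p = 0.53) lost theirs. On the lumbar side, the tweety genes Ttyh1 and Ttyh2 led at 1.23 and 0.94, ahead of the intracellular channel gene Clic5 at 0.88, Slc12a4 at 0.55 and Clic4 at 0.49. With total reads Ttyh1, Ttyh2 and Clic5 kept their calls, while Slc12a4 (0.23, limma adjusted p = 0.21) and Clic4 (0.16, adjusted p = 0.27) lost theirs. Of 2 other anoctamins tested, neither Ano4 (-0.41, limma adjusted p = 0.055) nor Ano8 (-0.27, limma adjusted p = 0.27) passed. With the mean of the glial markers as a covariate, 0 of the 28 passed (limma) and 4 had an unadjusted p under 0.05. Of all 16304 genes tested in that fit, 143 (0.877%) passed and 1809 were under 0.05 unadjusted.

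**Figure D3:**
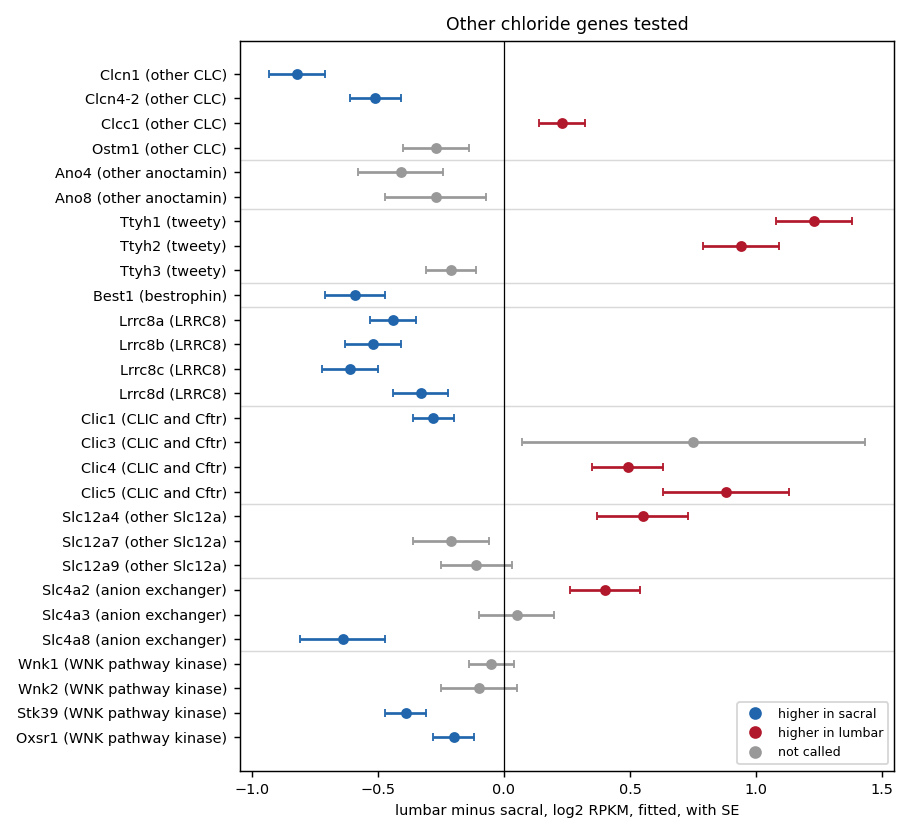
Fitted level difference in log2 RPKM with its SE (x axis, lumbar minus sacral) of 28 other chloride genes, ordered by family (y axis). Blue marks genes that passed with a higher value in sacral, red in lumbar libraries, and grey genes that did not pass. The 4 LRRC8 genes lie on the sacral side in this fit, Lrrc8a and Lrrc8d crossing 0 on the pan-neuronal scale, and Ttyh1 at 1.23 lies farthest to the lumbar side.

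None of the 9 tested genes passed between the sexes at an adjusted p of at most 0.05 (limma), in lumbar or sacral libraries, with or without the donor block. In lumbar libraries 0.0427% of all genes passed and in sacral libraries 0.0368%. The nearest was Slc12a2 in lumbar libraries, with a female minus male difference of -0.32 and an SE of 0.14 (limma adjusted p = 0.4), the 1 gene of the 9 with an unadjusted p under 0.05. In sacral libraries no gene of the 9 had an unadjusted p under 0.05, and Clcn2 had the largest difference, -0.55 with an SE of 0.27 (limma adjusted p = 0.62). No level difference of the 9 was found to depend on sex (limma), with 0% of all genes passing and none of the 9 under 0.05 unadjusted. The largest such difference was that of Clcn2, 0.44 with an SE of 0.35. Slc12a2 had means of 4.73 ± 0.25 (SD, n = 5) in lumbar libraries of males and 4.41 ± 0.29 in those of females, and of 4.38 ± 0.16 and 4.13 ± 0.13 in sacral libraries.

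The sign of several differences depended on the scale. The deposited values have the same median in every library, and the median level difference over all genes was -0.11. It was 0.01 with TMM factors on recovered reads, -0.43 when reads were scaled to the library total and 0.37 when values were scaled to the 5 pan-neuronal markers. Of all calls, 66.5% were in the sacral direction on the deposited scale, 52.8% after quantile normalisation, 50.4% with TMM factors, 87.0% with total reads and 6.89% on the pan-neuronal scale. On the pan-neuronal scale Clcn3 (0.20), Clcn7 (0.18) and Ano6 (0.25) turned to a higher value in lumbar libraries. Clcn3 (limma adjusted p = 0.019) and Ano6 (0.033) passed in that direction and Clcn7 (0.19) did not. Clcn5 (-0.21, limma adjusted p = 0.025) and Ano3 (-0.31, limma adjusted p = 0.031) were still higher in sacral libraries and passed. Clcn6 (-0.09) and Ano10 (-0.12) no longer passed. Measured from the median of all genes, the same 7 of the 9 genes lay on the sacral side and 2 on the lumbar side in each of these 5 scalings. Apart from quantile normalisation, these scalings shift all genes of a library by about the same amount. The distance from the median is then nearly fixed by construction, so this agreement is no separate support. Slc12a2 lay 0.42 to 0.55 above that median, and Ano3 lay at -0.69 to -0.56 from it.

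**Figure D4:**
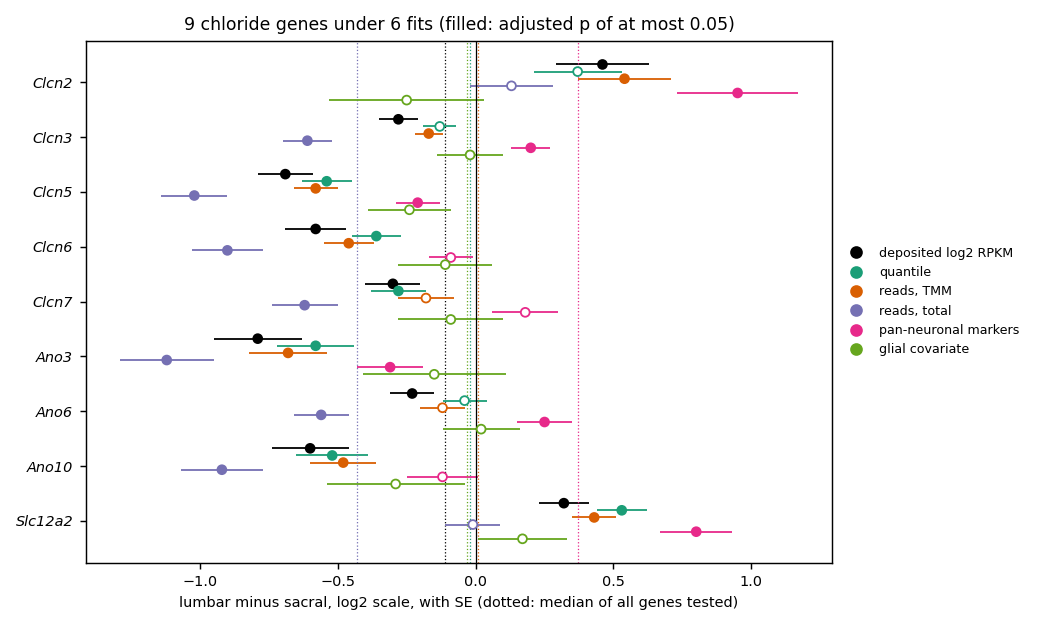
Level difference with its SE (x axis, log2 scale, lumbar minus sacral) of the 9 tested genes (y axis) in 6 fits. Filled points passed at an adjusted p of at most 0.05, and dotted lines mark the median of all genes in each fit. Points shift together with the median between scalings, so that Clcn3, Clcn7 and Ano6 cross 0 on the pan-neuronal scale and Slc12a2 lies at -0.01 with total reads, while no gene passed with the glial covariate.

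The glial markers moved with the same genes. With the mean of the 10 markers as a covariate, where 0 of the 9 genes passed, 143 of all genes tested did (limma). In that fit Clcn2 (-0.25) and Ano6 (0.02) changed sign, and Slc12a2 gave 0.17 with an SE of 0.16. The marker mean differed between levels in 10 of 10 donors, so spinal level and glial RNA cannot be told apart in that fit. Within the 10 lumbar libraries, where level is constant, Ano3 fell as the glial mean rose (Pearson r = -0.95, permutation p = 8e-05, Spearman rho = -0.94, permutation p = 0.0002), with r = -0.93 without the 2 libraries farthest from the median. Over 20 such relations, the adjusted p was 0.0016 for this r and 0.004 for this rho. The pan-neuronal marker mean was also lower in lumbar libraries with more glial RNA. It was 6.05 in the lumbar library of M2, with a glial mean of 6.84, and 6.91 in that of F5, with 5.74. Whether the relation is particular to Ano3 was not tested. In sacral libraries Ano3 gave r = -0.44 (permutation p = 0.21) and rho = -0.38 (permutation p = 0.28), with r = -0.19 without the 2 farthest libraries. Clcn6 in lumbar libraries (r = -0.77, rho = -0.76), Clcn5 in sacral libraries (r = -0.86, rho = -0.76) and Clcn2 in sacral libraries (r = 0.89, rho = 0.76) had adjusted permutation p of 0.027, 0.015 and 0.015 for r and 0.06 each for rho. Without the 2 farthest libraries their r was -0.85, -0.74 and 0.84. The other 16 relations had an adjusted p above 0.05 for both, among them Slc12a2 with r = 0.46 in lumbar and 0.59 in sacral libraries. For Clcn7, Ano6 and Ano10 in lumbar libraries, r lay between -0.23 and -0.13, and in sacral libraries Ano6 gave r = -0.73 and rho = -0.77 (adjusted permutation p of 0.08 and 0.06).

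**Figure D5:**
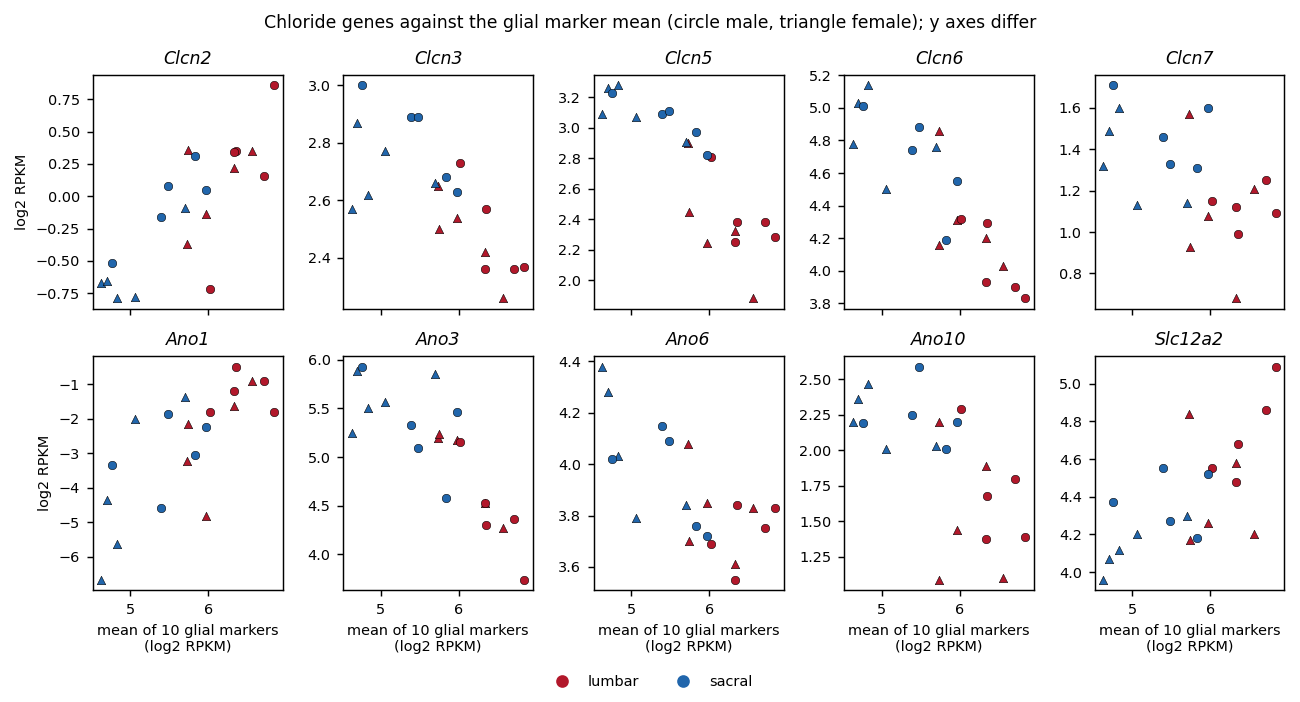
Level of each chloride gene (y axis, log2 RPKM, a separate scale per panel) against the mean of 10 glial markers (x axis, log2 RPKM) in 20 libraries. Red points are lumbar and blue sacral libraries, circles male and triangles female donors. Ano3 falls with the glial mean within the lumbar libraries (r = -0.95), and Clcn2 rises with it within the sacral ones (r = 0.89).

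The genes most like 3 of the 10 over the 20 libraries were named by Pearson r, as a ranking with no test, since lumbar and sacral libraries form separate groups. Ano3 was most like Dgki, Acpp and Serinc2, each at 0.98. Slc12a2 was most like Ext1 (0.92), Slc4a4 (0.91), a sodium-bicarbonate cotransporter, and Megf10 (0.90), an engulfment receptor known from glia. Ano1 was most like Gm12688 (0.89), Hes1 (0.88) and Rbpms (0.88). The 3 genes like Ano3 had level differences of -0.65 to -0.71, and those like Slc12a2 of 0.36 to 0.98.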

How the data were processed

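RNA was measured in 20 libraries of sorted Trpv1 neurons, 5 in each of 4 groups of spinal level and sex, and each library was placed by its label. The authors amplified total RNA, aligned reads with Subread to mm9 keeping unique matches, counted reads per Ensembl gene (featureCounts) and applied voom of limma 3.26.9 with TMM factors from edgeR 3.12.1, per their methods. The deposited table holds log2 RPKM values without a pseudocount, in which a gene without reads is an empty cell. Every library has a median of 0.93, by a step not given in the sources used here. Strand is not stated, so genes that overlap another are uncertain (5 of the 10 genes and 8 of the 16 others named by rule). Reads were worked back from the deposited values with exon lengths of NCBIM37, and 98.07% came out whole within 0.01 of a read. Depth gives counting error only.

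R 4.3.3 with limma 3.58.1 (and statmod 1.5.0) was used to test these values, with 4 group means, donor as a random block (correlation 0.173), a variance trend, and Benjamini-Hochberg adjustment over all genes at 0.05. Genes needed a mean above -1 over at least 3 values in a group, which Ano1 did not reach. Lumbar and sacral libraries of a donor carry the same animal numbers, and their deviations correlated at 0.176 on average (0.0391 to 0.302), against -0.0439 for other pairs. Correlations across donors or libraries used 100000 permutations in scipy 1.17.1, with Python 3.11.15. The fit was tested on simulated data.

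Alternatives were other filters, pseudocounts of 1 and 0.1, quantile normalisation, voom on recovered reads, array weights, no trend, other donor models, a glial covariate, each sex alone and each donor left out. Scaling to pan-neuronal markers was chosen after seeing the data. The 10 genes and all lists were chosen with earlier results of these data known. Beyond the 10 genes, the rule named the 5 called genes of the chloride list with the largest difference in each direction, Slc12a4, Slc12a5, Slc12a7, Ostm1, Wnk1, Stk39 and Oxsr1, and the 3 genes most like Slc12a2, Ano1 and Ano3. Lrrc8a, Lrrc8d, Ano4, Ano8 and genes that overlap others were named after their values were seen. Of 37620 genes, 37205 matched the annotation. Wnk3 was not analysed here. Some genes of the lists, and 1 planned comparison within libraries, are not reported here.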

Additional observations from a re-analysis of the deposited data

Results flagged for a closer look

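In 40 groups of 5 libraries (10 genes in 4 groups), 2 libraries stood apart from the rest of their group by Dixon's criterion, where chance gives about 1 in 20. Clcn2 was at -0.09 log2 RPKM in the sacral library of donor F3, while the other sacral libraries of females lay between -0.79 and -0.66. Clcn5 was at 2.81 log2 RPKM in the lumbar library of donor M1, while the other lumbar libraries of males lay between 2.25 and 2.38. The lumbar library of M1 also had the lowest Clcn2 of its group, -0.72, and M1 was the donor whose Clcn2 went the other way between levels. The glial marker mean was 5.70 in the sacral library of F3, the highest of the sacral libraries of females, and 6.02 in the lumbar library of M1, the lowest of the lumbar libraries of males. Its part in these values was not tested.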

How the results depend on the processing

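Of 9 calls, 8 were made with no replicate block, where Clcn2 was lost (0.46), and 9 with donors as fixed terms. The count of genes called went from 7436 to 6577 and 7253. The block changed no other call of these genes, and the sex counts stayed at 0. With the glial covariate 0 of the 9 genes and 143 genes in all passed, with level differences of -0.25 for Clcn2, -0.02 for Clcn3, -0.24 for Clcn5, -0.11 for Clcn6, -0.09 for Clcn7, -0.15 for Ano3, 0.02 for Ano6, -0.29 for Ano10 and 0.17 for Slc12a2. On the pan-neuronal scale, calls were lost for Clcn6 (-0.09) and Ano10 (-0.12), and Clcn3 (0.20), Clcn7 (0.18) and Ano6 (0.25) reversed. Of these reversed genes, Clcn3 and Ano6 passed in the lumbar direction and Clcn7 did not pass. Quantile normalisation lost Clcn2 (0.37), Clcn3 (-0.13) and Ano6 (-0.04). TMM factors lost Clcn7 (-0.18) and Ano6 (-0.12). Total reads lost Clcn2 (0.13) and reversed Slc12a2 (-0.01). Males alone gave 4588 genes and lost Clcn2 (0.24), Clcn7 (-0.36) and Ano6 (-0.21), and females alone gave 3634 genes and 4 of the 9, losing Clcn2 (0.69), Clcn3 (-0.22), Clcn7 (-0.24), Ano6 (-0.25) and Slc12a2 (0.28). Without the filter Clcn2 was lost (0.46) and Ano1 passed (1.62). With each donor left out in turn, 6 to 9 of the 9 genes passed, and differences ran from 0.39 to 0.57 for Clcn2, -0.36 to -0.26 for Clcn7 and -0.27 to -0.19 for Ano6, while Clcn3, Clcn5, Clcn6, Ano3, Ano10 and Slc12a2 passed each time. Fewer donors entered the fits of each sex, and the cause of the other changes was not tested. Depth limits Ano1, at 3 to 162 reads.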

Other observations

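Some chloride genes gave few or no reads in these sorted cells. Ano9 had no value in any library. Cftr, the channel of secretory epithelia, had a value in 4 of 20 libraries, with at most 8 reads. Slc12a1, the kidney relative of Slc12a2, had a value in 14 libraries with at most 23 reads, and Slc12a3 in 18 with at most 50. Ano2, the channel of olfactory neurons, had a value in 18 libraries with at most 50 reads, and Ano5 and Ano7 had 3 to 72 and 5 to 107 reads. Lrrc8e had a value in 11 libraries with at most 40 reads, in contrast to the other LRRC8 genes, whose lowest count in any library was 1671. Wnk4, a kinase of the pathway that acts on NKCC1, was below the limit for testing with a mean of -1.23 ± 0.47 (SD, n = 10) in lumbar and -2.60 ± 0.57 in sacral libraries, and it was higher in the lumbar library of 9 of 10 donors. These genes were named after their values were seen.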
